A study of Homo sapiens with 60 samples.

Results

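The genes described here are 42 genes of DNA replication and S phase entry, taken by symbol from a table of 60675 Ensembl genes. The members are a fixed list of symbols. The rule used no measured value, but this list and the lists beside it were chosen with earlier results of these data known. All 42 were found in the table and all 42 passed the filter on low counts, so none is missing from the results. RNA had been sequenced from SW1783, an established human astrocytoma cell line, after 24 h with ethanol extracts of medicinal plants.

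Replication begins when the origin recognition complex (ORC) with CDC6 and CDT1 loads the ring-shaped MCM2 to MCM7 helicase onto DNA before S phase. CDC45 and the GINS complex then join MCM2 to MCM7 to form the active CMG helicase. DNA polymerases alpha, delta and epsilon copy the strands with the sliding clamp PCNA, which RFC loads, while RPA covers single-stranded DNA and FEN1 and LIG1 finish Okazaki fragments. Ribonucleotide reductase (RRM1 with RRM2), TYMS and TK1 supply deoxynucleotides. E2F transcription factors and cyclin E, encoded by CCNE1 and CCNE2, drive entry into S phase, and most of the genes above are known E2F targets.

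The design held 60 libraries in 25 groups, which were vehicle (DMSO, 3 libraries) and 8 extracts at a high, a medium and a low dose. The single herbs were Polygalae Radix (30, 6 and 1.2 µg/mL, 2 libraries a dose), Aucklandiae Radix (160, 32 and 6.4 µg/mL, 2 a dose), and Menthae Herba and Saposhnikoviae Radix (500, 100 and 20 µg/mL, 3 a dose). The formulas, each a mixture of herbs, were Saengmaek-san and Guibi-tang (3 libraries a dose), Soyo-san (2 a dose) and Okbyeongpung-san (1 a dose), at 500, 100 and 20 µg/mL. Textbook recipes of Guibi-tang contain both Polygalae Radix and Aucklandiae Radix. The highest dose was set at the IC20, the concentration that lowered viability by 20%, wherever that fell below 500 µg/mL. The sample records give the vehicle as 0.1% DMSO and the series text as 2%, and the difference could not be settled. Libraries with low RNA yield had been left out by the submitters, per the series text.

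The library names fall into sets (vehicle alone, Polygalae with Aucklandiae, Menthae with Saposhnikoviae, Saengmaek-san with Guibi-tang, Soyo-san with Okbyeongpung-san). In comparisons with vehicle, library set and extract therefore cannot be told apart, and the same 3 vehicle libraries serve them all. High against low dose of 1 extract, and 2 extracts of 1 set, were compared within a set. Totals ran from 19031094 to 37686975 expected counts per library, and the lowest count of any of the 42 genes in any library was 55 (E2F2). The labels do not say whether replicates came from separate cultures, so p-values measure the spread between these libraries, which may be technical. Of 11 astrocyte and glioma markers, 5 were above 1 CPM in vehicle. VIM (5214 CPM) and CD44 (2888 CPM) led, while GFAP (0.179 CPM) and S100B (0.152 CPM) were near 0 and SOX2, AQP4 and ALDH1L1 were at 0. Epithelial and hepatocyte markers summed to at most 1.21 and 0.252 CPM in any library. Other lists were not near 0 in vehicle. Endothelial markers summed to 35.6 to 40.4 CPM, mostly KDR (36.9 CPM), and neuronal ones to 137 to 153 CPM, mostly TUBB3 (111 CPM). Leukocyte markers summed to 193 to 205 CPM, mostly CD68 (187 CPM). Levels are CPM, counts scaled to library size with TMM factors, and a gene was called when its edgeR adjusted p was under 0.05.

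In vehicle cells all 42 genes were expressed, with E2F2 the lowest at 6.61 ± 0.789 CPM (SD, n = 3). Per kilobase of the longest coding transcript, PCNA stood highest at 87.5 CPM per kb, followed by MCM7 (64.2), RRM1 (54.8), RRM2 (49.9) and TYMS (48.9). E2F2, an activator E2F, stood lowest at 1.27 CPM per kb, with ORC1 (5.35) and GINS3 (5.60) next. MCM2 to MCM7, which form 1 ring, ran from 11.2 CPM per kb (MCM2) to 64.2 (MCM7).

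Polygalae Radix at 30 µg/mL gave 24 of 42 genes lower than vehicle and 11 higher, and 7 were not called. Of all 19366 genes tested, 25.6% were called lower and 22.4% higher. The median log2 fold change was -0.35 over the 42 genes and 0.03 over all genes tested. TMM factors were 0.942, 0.932 and 0.936 in vehicle and 1.19 and 1.28 in these libraries. A higher factor lowers the CPM of every gene, and changes without the factors were not worked out. The same scaling holds most genes near 0, so the median over all genes is no independent reference. The number of rises lay near the share over all genes, so that number is no result about the list. By role, the helicase ring, the clamp and nucleotide supply fell, while cyclin E, E2F factors and parts of licensing rose. Values from bulk RNA cannot tell fewer cells in S phase from less RNA of these genes per cell.

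Nucleotide supply fell as a whole, 4 of 4 genes. RRM1, the large subunit of ribonucleotide reductase (ENSG00000167325, chr11:4094707-4138876, plus strand, GRCh38), was at 169, 171 and 166 CPM in vehicle and at 44.8 and 46.1 CPM at the high dose. The groups did not overlap, and the log2 fold change was -1.89 (SE 0.18, edgeR adjusted p = 7.8e-12). TK1, thymidine kinase of the salvage pathway (chr17:78174075-78187233, minus strand), went from 59.7 to 64.5 CPM in vehicle to 18.7 and 17.6 CPM. Its log2 fold change was -1.76 (SE 0.25, adjusted p = 1.56e-07). TYMS, which makes thymidylate, fell to 45.3 ± 0.313 CPM (SD, n = 2) from 81.3 ± 5.33 CPM (SD, n = 3). RRM2, the small reductase subunit, moved least of the 4, from 183 ± 5.22 to 156 ± 18.9 CPM, with 143 and 170 CPM in the single libraries (log2 fold change -0.23, SE 0.09, adjusted p = 0.0273).

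MCM2 to MCM7 were lower in 6 of 6 genes. Their summed level was 666 ± 10.8 CPM in vehicle (SD, n = 3) and 301 ± 2.19 CPM at the high dose (SD, n = 2). MCM6 (ENSG00000076003, chr2:135839626-135876426, minus strand) showed the largest change, from 48.8, 50.1 and 44.9 CPM in vehicle to 13.5 and 15.8 CPM, with no overlap (log2 fold change -1.71, SE 0.12, adjusted p = 2.35e-15). MCM2 followed at -1.36, then MCM5 and MCM7 at -1.19 each, MCM3 at -1.18 and MCM4 at -0.88. MCM10, which helps start the assembled helicase and is not part of the ring, rose by 0.57 on the log2 scale (SE 0.13, adjusted p = 0.000372).

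The partners of the helicase did not move as a block. CDC45 fell from 24.1 ± 0.540 to 15.3 ± 0.287 CPM and GINS4 from 41.4 ± 0.823 to 31.4 ± 5.16 CPM. GINS1 rose from 35.9 ± 1.91 to 55.3 ± 4.39 CPM, and GINS3 from 12.7 ± 0.577 to 26.0 ± 0.518 CPM (log2 fold change 1.03, SE 0.12, adjusted p = 4.47e-09). GINS2 was at 20.7 ± 1.06 and 20.0 ± 0.478 CPM (adjusted p = 0.858). Thus 4 subunits of the same complex gave 2 rises, 1 fall and 1 gene not called.

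Licensing and regulators contained most of the rises. ORC6, the smallest subunit of the origin recognition complex (ENSG00000091651, chr16:46689643-46698394, plus strand), was at 29.3, 27.4 and 27.5 CPM in vehicle and at 78.0 and 74.4 CPM at the high dose (log2 fold change 1.44, SE 0.09, adjusted p = 1.05e-16). CCNE2, a cyclin E, went from 20.0, 23.4 and 22.1 CPM to 52.1 and 65.8 CPM (log2 fold change 1.43, SE 0.31, adjusted p = 0.000223). E2F2 went from 6.27, 6.04 and 7.51 CPM to 15.0 and 13.3 CPM (1.10 on the log2 scale, SE 0.15, adjusted p = 4.62e-08). In each of these 3 genes both treated libraries lay above all vehicle libraries. CCNE1 rose by 0.86, E2F1 by 0.72 and CDT1, the partner of CDC6 in loading the helicase, by 0.56 on the log2 scale. CDC6 and ORC1 were not called, at 84.2 ± 0.722 against 92.6 ± 1.25 CPM and 16.9 ± 0.711 against 17.9 ± 1.83 CPM. UHRF1, which carries DNA methylation through replication, was the regulator that fell (log2 fold change -0.63).

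At the fork itself, PCNA fell from 119 ± 8.58 to 64.4 ± 2.19 CPM (log2 fold change -0.89, SE 0.11, adjusted p = 1.17e-08). The clamp loader gave RFC1, RFC2 and RFC5 lower, RFC3 higher and RFC4 not called. Of the polymerases, POLA1, the catalytic subunit of polymerase alpha, fell most, from 58.8, 67.6 and 62.8 CPM to 22.5 and 22.0 CPM (log2 fold change -1.50, SE 0.25, adjusted p = 3.28e-06). POLA2, PRIM1 (primase) and POLD1 fell as well, and POLE and POLE2 were not called. RPA1 fell by 0.68 and RPA3 by 1.08 on the log2 scale, and RPA2 was not called. LIG1, the ligase of the lagging strand, fell by 0.85, and FEN1, the flap nuclease that acts just before it, rose by 0.41.

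**Figure D1:**
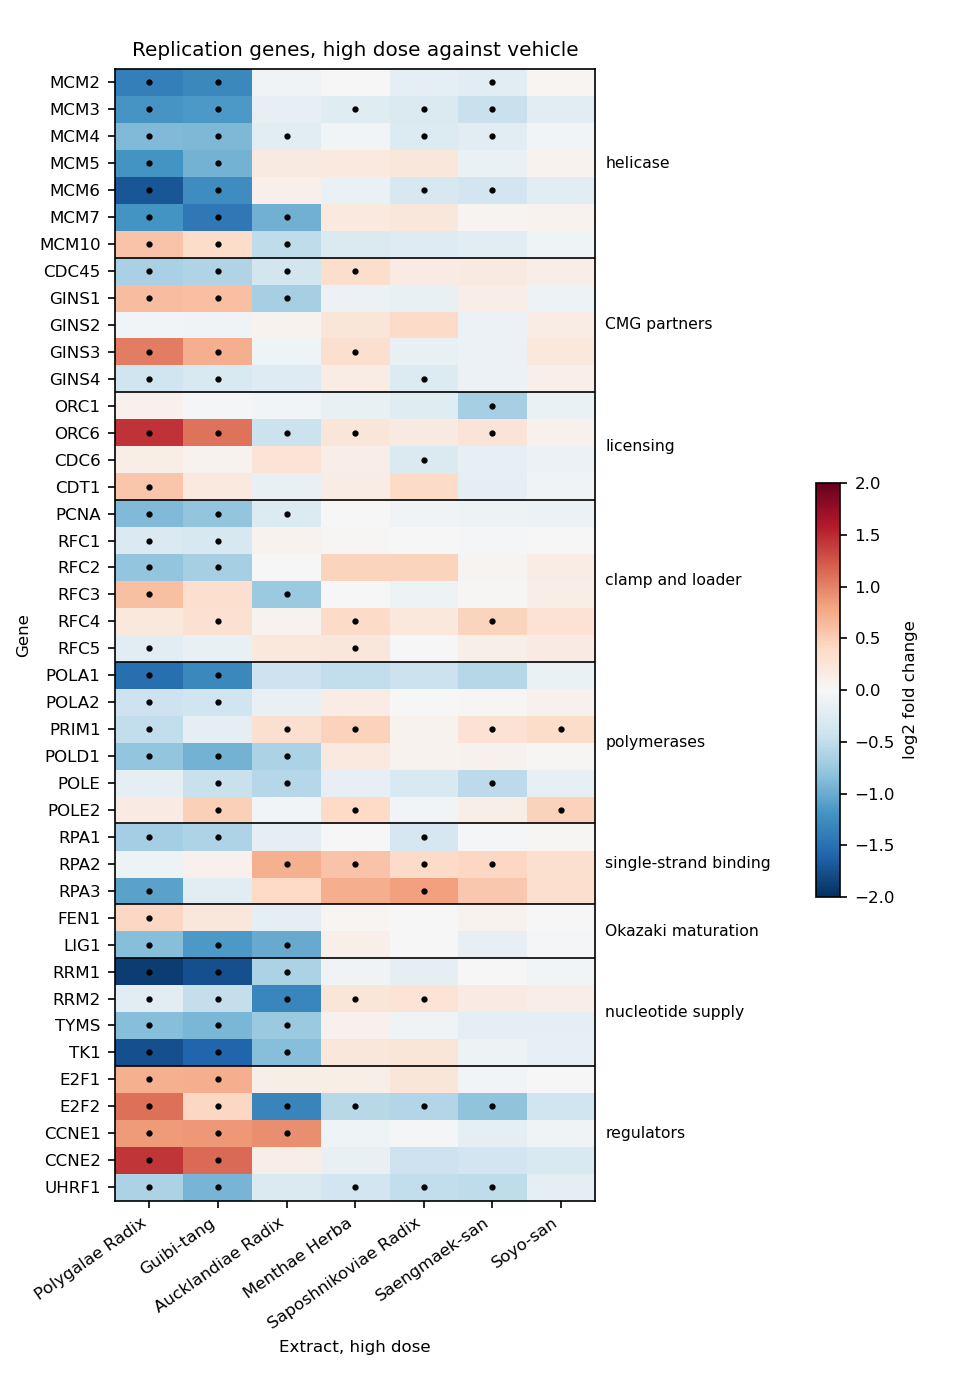
Log2 fold change of the 42 genes (rows, grouped by role) at the high dose of 7 extracts against vehicle (columns), with blue for lower and red for higher and a dot where the edgeR adjusted p was under 0.05. Polygalae Radix and Guibi-tang each have 6 of 7 helicase genes and 4 of 4 nucleotide supply genes lower, with ORC6, GINS1, GINS3, E2F1, E2F2, CCNE1 and CCNE2 higher.

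Guibi-tang at 500 µg/mL gave 22 of the 42 genes lower and 10 higher, and 10 were not called, where 26.6% of all genes tested were lower and 23.6% higher. The number of rises was again near the share over all genes and is no result about the list. The median log2 fold change was -0.31 over the 42 genes and 0.03 over all genes. TMM factors of these libraries were 1.28, 1.32 and 1.28, also above those of vehicle, and the same limit holds. RRM1 was at 48.2, 51.7 and 49.5 CPM, against 166 to 171 CPM in vehicle (-1.76 on the log2 scale, SE 0.15, adjusted p = 7.36e-13). TK1 was at 19.6, 20.7 and 20.8 CPM (log2 fold change -1.59, SE 0.21, adjusted p = 4.43e-08). MCM7, at 206, 194 and 194 CPM in vehicle, was at 68.2, 74.4 and 77.1 CPM (log2 fold change -1.44, SE 0.14, adjusted p = 8.98e-12). None of these overlapped vehicle, and the summed level of MCM2 to MCM7 was 301 ± 8.52 CPM (SD, n = 3).

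CCNE2 rose to 50.2, 45.5 and 48.4 CPM (log2 fold change 1.14, SE 0.29, adjusted p = 0.00111). ORC6 rose to 59.8 ± 2.07 CPM (SD, n = 3), a log2 fold change of 1.09 (SE 0.08, adjusted p = 2.7e-14). CCNE1 was at 38.5, 39.2 and 36.7 CPM against 20.8, 20.9 and 21.2 CPM in vehicle (0.86 on the log2 scale, SE 0.08, adjusted p = 3.84e-12). All treated libraries of these 3 genes lay above the vehicle values of their gene. GINS1 (0.60), GINS3 (0.72), E2F1 (0.72), POLE2 (0.48), E2F2 (0.41), MCM10 (0.37) and RFC4 (0.30) were the other genes called higher, given as log2 fold changes. RPA3, which fell with Polygalae Radix, was at 21.2 ± 1.43 against 25.0 ± 1.45 CPM and was not called (adjusted p = 0.513).

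These comparisons share the vehicle libraries, so the 2 extracts were set beside each other through high against low dose, which shares no library. Polygalae Radix high against low gave 25 genes lower and 11 higher (25.2% and 20.8% of all genes tested), and Guibi-tang high against low 25 lower and 9 higher (27.4% and 23.8%). The 25 genes lower were the same genes, 100% of each list. Of the genes called higher, 8 were shared, which are MCM10, GINS1, GINS3, ORC6, E2F1, E2F2, CCNE1 and CCNE2. No gene was called in opposite directions, and 40 of 42 had the same sign. Over the 42 genes Pearson's r of the log2 fold changes was 0.955 and Spearman's rho 0.957. This is a description across genes that come from the same cells and are not independent. The overlap and r over all genes tested were not worked out. This likeness is therefore not shown to be particular to the 42 genes.

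**Figure D2:**
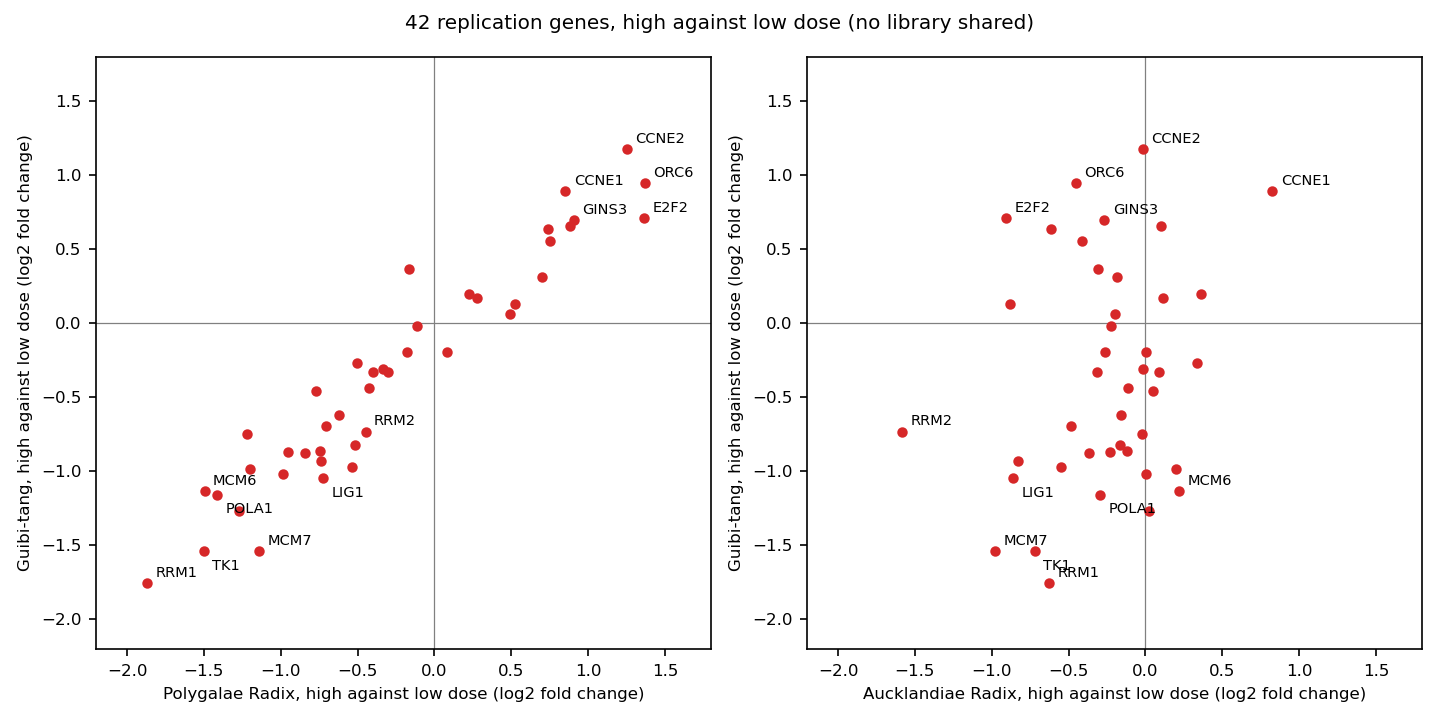
Log2 fold change of high against low dose for the 42 genes (points), Guibi-tang on the vertical axis against Polygalae Radix (left) and Aucklandiae Radix (right). The left points lie along a line with r = 0.955, while in the right panel r is 0.235 and MCM6, ORC6, E2F2 and CCNE2 lie away from it.

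Other features of these libraries moved alongside. The 11 astrocyte and glioma markers, mostly VIM and CD44, summed to 8119 to 8289 CPM in vehicle, 1506 to 1599 CPM at the high dose of Polygalae Radix and 1772 to 1982 CPM at that of Guibi-tang. The 5 neuronal markers summed to 137 to 153 CPM in vehicle, 23.0 to 29.5 CPM with Polygalae Radix and 38.7 to 42.4 CPM with Guibi-tang. The leukocyte list was also below vehicle (193 to 205 CPM), at 47.7 to 71.4 CPM and 104 to 133 CPM. CD3E, which defines T cells, was at 0 in every library. The share of counts from mitochondrially encoded genes was 10.2% ± 0.114 in vehicle, 15.5% ± 5.28 with Polygalae Radix and 8.79% ± 0.849 with Guibi-tang. The part of these in the replication genes' changes was not tested.

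The medium doses showed fewer changes. Polygalae Radix at 6 µg/mL gave 4 genes lower and 1 higher, where 4.40% of all genes were called. MCM6 fell by 0.57, LIG1 by 0.45, MCM2 by 0.36 and MCM3 by 0.31, and ORC6 rose by 0.44 on the log2 scale. RRM1 was not called at the medium dose. Its values there, 112 and 126 CPM, lay between the low dose (155 and 177 CPM) and the high dose (44.8 and 46.1 CPM). Guibi-tang at 100 µg/mL gave 2 lower (LIG1 and MCM3) and 4 higher (ORC6, RFC4, RPA2 and PRIM1), where 6.77% of all genes were called. At the low doses no gene was called for Polygalae Radix (background 1.11%) and 1 for Guibi-tang (RPA2, background 2.46%). At an unadjusted p under 0.05, 7 of the 42 genes passed for Polygalae Radix at the low dose, and DESeq2 called 2. Shares of all genes by these 2 criteria are not given, so such counts, here and below, are no result about the list. The medium dose counts depended on the libraries in the fit. They were 2 in all for Polygalae Radix without medium replicate 3 and 2 in all for Guibi-tang without vehicle replicate 3. A refit left out 10 libraries whose values tilted with transcript length, described further on. There Polygalae Radix medium had 12 genes lower and 7 higher, and Guibi-tang medium 12 lower and 6 higher. The shares of all genes called in that refit are not given, so these counts are no result about the list.

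**Figure D3:**
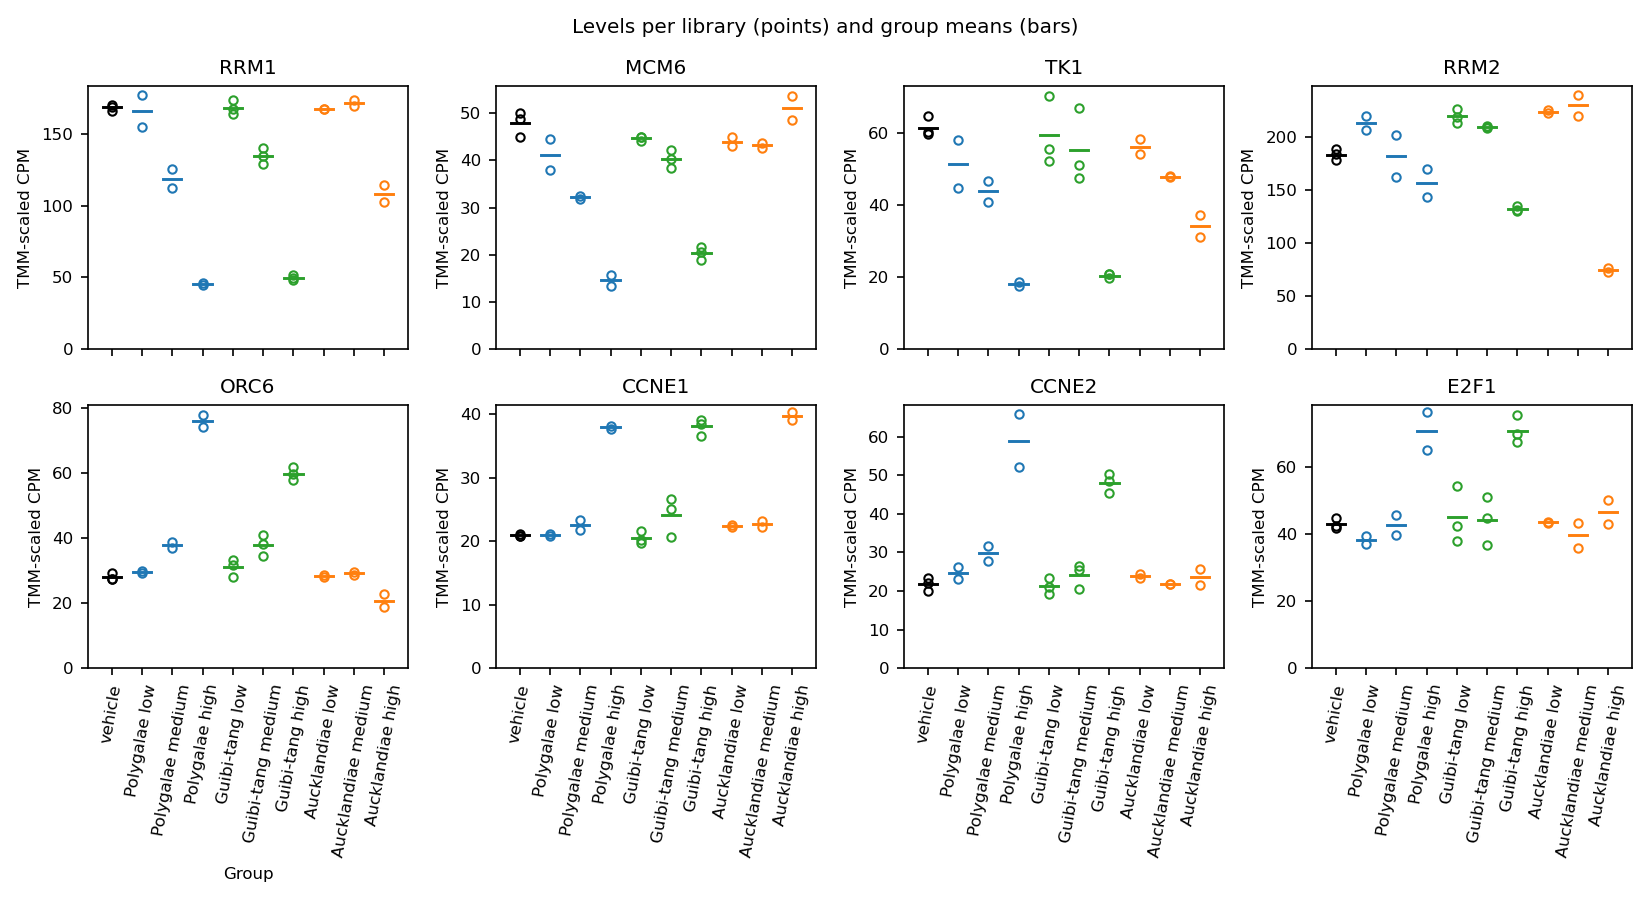
TMM-scaled CPM of 8 genes in each library (open points) with group means (bars) for vehicle and 3 doses of Polygalae Radix, Guibi-tang and Aucklandiae Radix. RRM1, MCM6 and TK1 fall and ORC6, CCNE2 and E2F1 rise at the high dose of Polygalae Radix and Guibi-tang. CCNE1 is raised at the high dose of each of these extracts, and RRM2 is lowest with Aucklandiae Radix at its high dose.

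The promoters of these genes were read because so many moved together. RefSeq start sites (GRCh38.p14) were matched for 36 of the 42 genes, and each window ran from 250 bases before to 50 after the start. E2F-type letters (TTTGGCGC, TTTCCCGC, TTTCGCGC or TTTGCCGC on either strand, with overlapping matches counted separately) occurred in 20 of the 36 genes (55.6%). They occurred in 1090 of 27305 genes with such a window (3.99%). CCAAT was present in 22 of 36 (61.1%, against 39.7% of all genes) and the CHR-type letters TTTGAA in 1 of 36 (2.78%, against 18.2%). Each stretch below runs 5′ to 3′ on the gene's strand from 200 bases before to 20 bases from the start, with E2F-type letters in capitals. MCM6, MCM3, POLA1 and RRM1 are shown because they fell with both extracts, and E2F1 and GINS3 because they rose.
MCM6 (chr2:135876424-135876643, minus strand): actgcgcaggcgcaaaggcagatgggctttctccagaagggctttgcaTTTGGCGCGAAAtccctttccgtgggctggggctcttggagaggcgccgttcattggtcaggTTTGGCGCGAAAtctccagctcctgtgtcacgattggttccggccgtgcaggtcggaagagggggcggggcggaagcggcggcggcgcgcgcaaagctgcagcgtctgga
MCM3 (chr6:52284723-52284942, minus strand): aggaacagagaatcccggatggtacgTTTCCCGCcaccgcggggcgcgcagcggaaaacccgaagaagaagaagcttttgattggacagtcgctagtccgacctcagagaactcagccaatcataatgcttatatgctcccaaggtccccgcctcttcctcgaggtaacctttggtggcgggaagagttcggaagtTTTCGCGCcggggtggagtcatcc
POLA1 (chrX:24693718-24693937, plus strand): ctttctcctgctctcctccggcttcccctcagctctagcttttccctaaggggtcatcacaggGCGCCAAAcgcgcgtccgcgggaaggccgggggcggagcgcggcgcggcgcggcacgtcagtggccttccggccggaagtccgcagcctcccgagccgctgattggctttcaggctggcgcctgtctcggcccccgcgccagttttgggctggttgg
RRM1 (chr11:4094485-4094704, plus strand): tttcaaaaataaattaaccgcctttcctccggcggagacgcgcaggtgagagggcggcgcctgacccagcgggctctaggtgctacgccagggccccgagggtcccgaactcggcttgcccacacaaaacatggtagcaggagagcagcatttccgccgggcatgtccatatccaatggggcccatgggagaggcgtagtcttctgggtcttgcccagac
E2F1 (chr20:33686366-33686585, minus strand): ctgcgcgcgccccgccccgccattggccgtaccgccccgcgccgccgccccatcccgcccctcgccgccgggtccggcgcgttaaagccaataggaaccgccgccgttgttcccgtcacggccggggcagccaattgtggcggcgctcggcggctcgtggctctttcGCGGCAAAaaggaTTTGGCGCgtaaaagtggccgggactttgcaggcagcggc
GINS3 (chr16:58392271-58392490, plus strand): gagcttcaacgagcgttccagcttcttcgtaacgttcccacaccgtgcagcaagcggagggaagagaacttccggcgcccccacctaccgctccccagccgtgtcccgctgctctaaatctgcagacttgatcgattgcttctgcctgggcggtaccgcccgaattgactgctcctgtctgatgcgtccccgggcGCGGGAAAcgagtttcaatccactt

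The letters were found among genes that fell and among genes that rose. With Polygalae Radix they were in 10 of 20 genes that fell, 6 of 10 that rose and 4 of 6 not called, counting genes with a promoter entry. MCM6, which fell, has 4 matches in 2 overlapping pairs (TTTGGCGCGAAA), and E2F1, which rose, has 2. RRM1, with the largest fall, has none in its window, which says only that these letters are absent there. A match of letters is not a measured binding site.

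Aucklandiae Radix at 160 µg/mL, from the same library set as Polygalae Radix, gave 16 genes lower and 3 higher, with 23 not called. Of all genes tested, 17.0% were lower and 15.7% higher. The median log2 fold change was -0.17 over the 42 genes and -0.02 over all genes. Nucleotide supply again fell in 4 of 4 genes, whereas MCM2, MCM3, MCM5 and MCM6 were not called.

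RRM2 (ENSG00000171848, chr2:10120698-10131419, plus strand) was at 184, 188 and 178 CPM in vehicle and 72.4 and 76.7 CPM with Aucklandiae Radix, with a log2 fold change of -1.30 (SE 0.09, adjusted p = 8.25e-15). E2F2 went from 6.27, 6.04 and 7.51 CPM to 2.94 and 2.37 CPM (-1.31 on the log2 scale, SE 0.17, adjusted p = 3.99e-08). LIG1 went from 28.3, 26.6 and 28.1 CPM to 12.6 and 14.8 CPM (-1.01 on the log2 scale, SE 0.11, adjusted p = 2.74e-09). For each of the 3 the groups were apart, and the E2F2 change has the opposite sign to that with Polygalae Radix. MCM7 (-0.96), TK1 (-0.85), RFC3 (-0.74), TYMS (-0.74), GINS1 (-0.66), POLD1 (-0.64), RRM1 (-0.64), POLE (-0.56), MCM10 (-0.51), ORC6 (-0.43), CDC45 (-0.36), PCNA (-0.28) and MCM4 (-0.21) were the other genes called lower, given as log2 fold changes.

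CCNE1 rose to 39.1 and 40.4 CPM from 20.8, 20.9 and 21.2 CPM (log2 fold change 0.92, SE 0.09, adjusted p = 2.66e-11). RPA2 rose from 57.5, 55.2 and 48.0 CPM to 85.4 and 90.9 CPM (log2 fold change 0.72, SE 0.11, adjusted p = 1.55e-06). PRIM1 rose from 19.6, 20.7 and 17.5 CPM to 24.6 and 23.7 CPM (log2 fold change 0.32, SE 0.09, adjusted p = 0.00622). The other cyclin E gene, CCNE2, was at 25.6 and 21.7 CPM and overlapped vehicle (20.0 to 23.4 CPM, edgeR adjusted p = 0.834). The number of genes called higher rested on the settings, with 5 under RLE scaling or DESeq2 and 7 in a fit of these 2 groups alone. Without high replicate 2 the number called lower was 7. High against low dose gave 16 lower (13.4% of all genes) and 3 higher (10.5% of all genes), which became 7 lower without high replicate 2 and 1 higher without any 1 of the 4 libraries. There PRIM1 was not called (log2 fold change 0.05, adjusted p = 0.788) and CDC6 was called higher (0.36, adjusted p = 0.0217). In the medium dose group, 32 µg/mL, RRM2 rose by 0.33 and RPA2 by 0.38, and E2F2 fell by 0.58 on the log2 scale, where 4.18% of all genes were called. At the low dose no gene was called (background 0.728%), with 8 at an unadjusted p under 0.05.

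The difference between the 2 root extracts was tested directly at their high doses, which are 160 and 30 µg/mL and so not matched in mass. With Aucklandiae Radix 17 genes were higher than with Polygalae Radix and 11 lower, where 25.4% and 23.7% of all genes were called. MCM6 differed most among the higher ones, at 48.6 and 53.8 CPM against 13.5 and 15.8 CPM (log2 difference 1.81, SE 0.13, adjusted p = 2.82e-15). RPA3 (1.48) and MCM5 (1.37) followed, then MCM2 (1.30) and RRM1 (1.26). On the other side stood E2F2, at 2.94 and 2.37 CPM against 15.0 and 13.3 CPM (log2 difference -2.41, SE 0.18, adjusted p = 1.1e-14), ORC6 (-1.87) and RFC3 (-1.35). RRM2 was also lower with Aucklandiae Radix (-1.07, SE 0.10, adjusted p = 3.06e-12). MCM7 (0.24, SE 0.16), TYMS (0.10, SE 0.13), LIG1 (-0.16, SE 0.12) and CCNE1 (0.07, SE 0.09) were not called, which does not show that the 2 extracts act alike on them. The astrocyte and glioma markers summed to 6856 to 8658 CPM in Aucklandiae Radix high, the neuronal ones to 196 to 205 CPM and the leukocyte ones to 200 to 294 CPM, and the mitochondrial share was 5.62% ± 2.16. Their part in these differences was not tested.

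**Figure D4:**
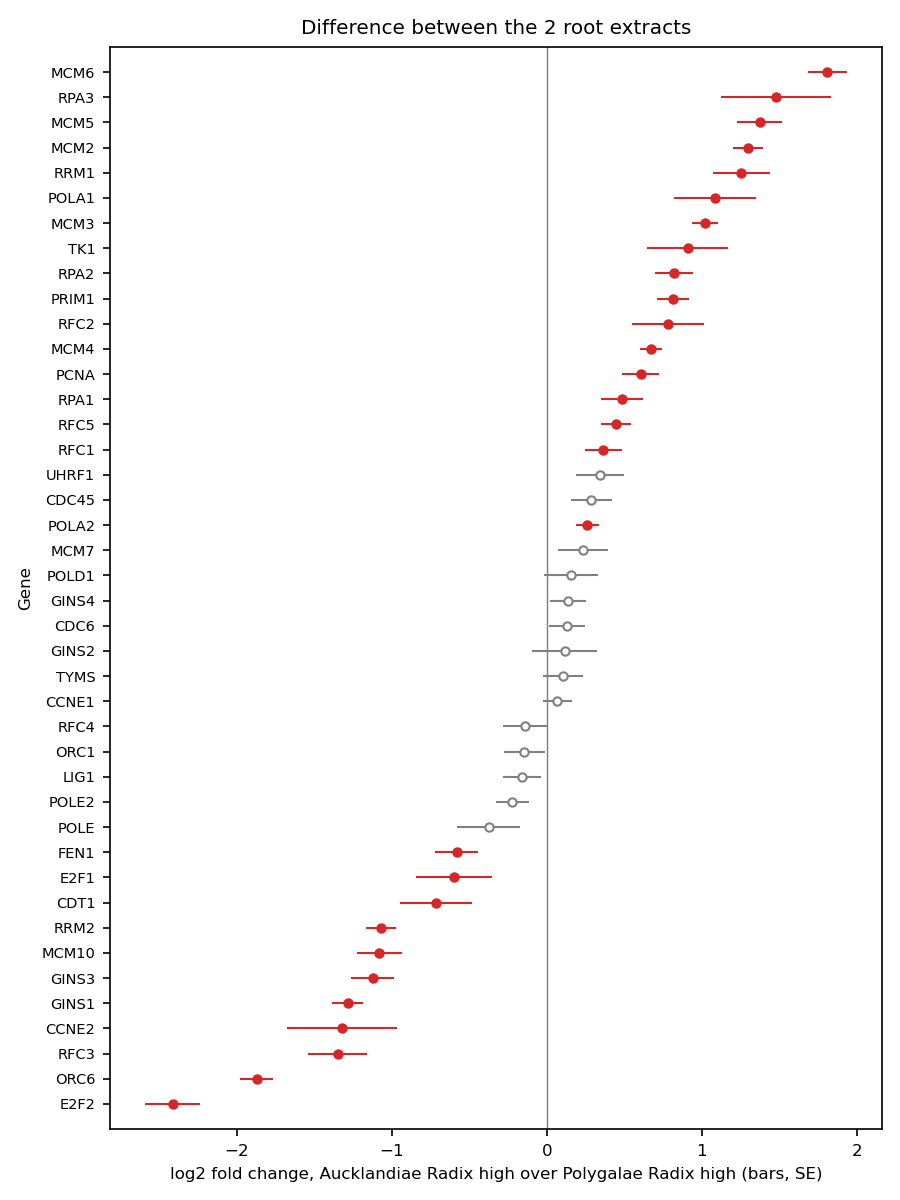
Log2 difference of Aucklandiae Radix high over Polygalae Radix high for each of the 42 genes (points, bars are 1 SE), filled red where the edgeR adjusted p was under 0.05. MCM6, RPA3, MCM5 and MCM2 lie to the right at 1.30 or more, and E2F2 and ORC6 lie to the left at -2.41 and -1.87.

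Through high against low dose, 10 genes were lower with both Aucklandiae Radix and Guibi-tang, which is 62.5% of the Aucklandiae list and 40.0% of the Guibi-tang list, and 1 gene, CCNE1, was higher with both. A further 6 genes were called in opposite directions, and r over the 42 genes was 0.235. The overlap and r over all genes tested were not worked out here either. These counts and this r are therefore not shown to be particular to the 42 genes. Guibi-tang was also tested against Saengmaek-san, the other formula of its library set, both at 500 µg/mL. There 24 genes were lower and 11 higher, where 26.9% and 24.7% of all genes were called. RRM1 (-1.77), MCM7 (-1.50) and TK1 (-1.49) were the lowest and CCNE2 (1.52), E2F2 (1.22) and CCNE1 (1.05) the highest log2 differences.

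Mitotic genes were followed beside the replication genes. With Polygalae Radix 15 of 24 fell (median log2 fold change -0.56), with Guibi-tang 22 of 24 (median -0.85) and with Aucklandiae Radix 24 of 24 (median -1.61), and none rose. Of all genes tested, 25.6%, 26.6% and 17.0% were called lower in these comparisons and 22.4%, 23.6% and 15.7% higher. KIF20A, a mitotic kinesin, had the largest fall with each extract, at -2.92, -3.81 and -3.48. The summed level of the 24 genes was 3361 ± 72.6 CPM in vehicle, 1931 ± 49.5 CPM with Polygalae Radix, 1413 ± 30.9 CPM with Guibi-tang and 946 ± 55.2 CPM with Aucklandiae Radix. The order was different for MCM2 to MCM7, whose sum was 546 ± 42.2 CPM with Aucklandiae Radix (SD, n = 2) and 301 CPM with each of the others.

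**Figure D5:**
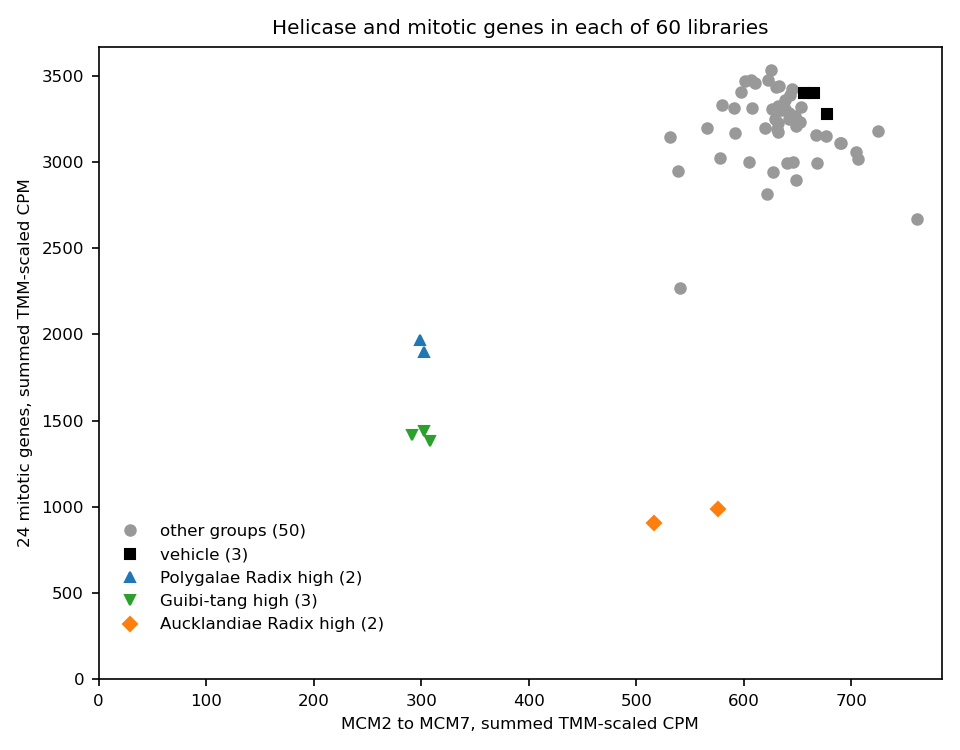
Summed CPM of MCM2 to MCM7 (horizontal axis) and of 24 mitotic genes (vertical axis) in each of 60 libraries (points). The high doses of Polygalae Radix and Guibi-tang lie near 301 CPM for the helicase, and Aucklandiae Radix high lies near 546 CPM for the helicase with the lowest mitotic sum, 946 CPM.

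Of 40 other replication genes, 11 fell and 12 rose with Polygalae Radix, and 11 fell and 11 rose with Guibi-tang. The median log2 fold changes of the list were 0.12 and 0.02, and these counts lie near the shares over all genes (25.6% lower and 22.4% higher, 26.6% lower and 23.6% higher), so they are no result about the list. DNMT1, the maintenance DNA methyltransferase, fell from 200 to 73.0 and 68.9 CPM (log2 fold changes -1.45 and -1.53). RNASEH2A, a ribonuclease H2 subunit, fell by 1.41 and 0.93, and DBF4, the activator of the CDC7 kinase, rose by 1.01 and 0.68 on the log2 scale. With Aucklandiae Radix 9 fell, led by ASF1B, a histone chaperone (-1.24), and 5 rose, led by ORC3 (0.57). In the list of 27 G1/S regulators, 26 were tested, with median log2 fold changes of 0.33, 0.15 and -0.18 for Polygalae Radix, Guibi-tang and Aucklandiae Radix. The shares over all genes were 22.4%, 23.6% and 15.7% higher and 25.6%, 26.6% and 17.0% lower. Polygalae Radix gave 12 higher, with CDC25A, E2F3 and CDKN1B at 1.06, 1.01 and 0.89, and 3 lower, which were CDK6, CCND1 and CCND3. Guibi-tang gave 10 higher, with E2F7, E2F6 and CDKN1A at 1.23, 1.07 and 1.06, and 3 lower. Aucklandiae Radix gave 7 higher, with CDKN1A, the p21 inhibitor, from 22.5 to 82.2 CPM (1.87) and CCND1, cyclin D1, from 217 to 459 CPM (1.08), and 8 lower, led by E2F8 (-1.95) and CDKN2C (-1.94). WEE1, the kinase that restrains CDK1, rose by 1.30 with Polygalae Radix and by 0.87 with Guibi-tang and fell by 0.85 with Aucklandiae Radix on the log2 scale. Of the 10 S phase checkpoint genes 4, 4 and 1 rose with these extracts and 1, 0 and 1 fell, to be read against the same shares over all genes.

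Against vehicle, values of the remaining extracts and of lower doses went with transcript length. In 10 of the 60 libraries the deviation from vehicle fell with transcript length by more than 0.15 log2 units per doubling, and they are called length-tilted here. They are high replicate 3 of Menthae Herba, high replicate 2 and low replicates 2 and 3 of Saposhnikoviae Radix, replicate 1 of each dose of Saengmaek-san, medium and low replicate 2 of Guibi-tang, and the high dose of Okbyeongpung-san. None is a Polygalae or Aucklandiae library or a Guibi-tang high library. No vehicle library is among them either, but deviations were taken from the vehicle mean. Vehicle as a group could therefore not be marked as length-tilted. The length used for the tilt was the median over a gene's coding transcripts. For the r values that follow it was the longest coding transcript. Across the 42 genes, r between log2 fold change and log2 length was -0.64 with Menthae Herba, -0.56 with Saposhnikoviae Radix, -0.62 with Saengmaek-san, -0.52 with Soyo-san and -0.73 with Okbyeongpung-san. It was -0.07 for Polygalae Radix, -0.20 for Guibi-tang and -0.29 for Aucklandiae Radix at the high dose against vehicle. At their medium and low doses against vehicle it was -0.42 and -0.54 for Polygalae Radix, -0.64 and -0.67 for Guibi-tang and -0.40 and -0.69 for Aucklandiae Radix. In high against low dose it was 0.04, -0.05 and -0.04 for these 3 extracts. It was 0.02 with Soyo-san, -0.16 with Saengmaek-san, 0.33 with Saposhnikoviae Radix and -0.58 with Menthae Herba. Soyo-san has no length-tilted library, so the correlation against vehicle is not confined to groups that hold such libraries. The part of length in the results above and below was not tested beyond leaving the length-tilted libraries out.

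Menthae Herba at 500 µg/mL gave 9 genes higher and 3 lower (11.1% and 11.7% of all genes tested). RPA2 rose to 70.3, 76.5 and 91.5 CPM from 48.0 to 57.5 CPM (log2 fold change 0.57, SE 0.10, adjusted p = 3.31e-05). PRIM1 rose to 25.8, 27.4 and 26.3 CPM (0.46, adjusted p = 6.55e-05) and POLE2, a polymerase epsilon subunit, to 13.8, 17.0 and 14.7 CPM (0.40, adjusted p = 0.000599). E2F2 fell to 4.60, 4.62 and 4.25 CPM (-0.55, adjusted p = 0.0028), UHRF1 by 0.38 and MCM3 by 0.24 on the log2 scale. Each of these lay outside the vehicle range in all 3 libraries. High against low dose gave 6 higher and 1 lower (6.33% and 9.28%). The count against vehicle was 3 higher without vehicle replicate 3 and 5 higher without high replicate 3, and the fit of these 2 groups alone gave 2 higher and 1 lower. Without the tilted libraries it was 9 higher and 5 lower.

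Saposhnikoviae Radix at 500 µg/mL gave 8 lower and 3 higher (4.05% and 8.61%), but its replicate 2 stood apart. That library had the steepest length tilt, -0.447, with RPA3 at 79.6 CPM against 25.4 and 27.7 CPM in the other replicates, UHRF1 at 33.2 against 66.7 and 68.7 CPM and RPA1 at 45.3 against 85.6 and 86.0 CPM. E2F2 fell to 4.97, 3.51 and 4.64 CPM (log2 fold change -0.59, SE 0.14, adjusted p = 0.00663). RPA2 rose to 65.1, 78.0 and 65.7 CPM (0.38, adjusted p = 0.0139), RRM2 by 0.28 and RPA3, whose groups overlapped, by 0.82 on the log2 scale. Without replicate 2 no gene was called lower and 1 higher, RRM2, and without replicate 1 or replicate 3 the counts were 12 lower and 7 higher. Leaving out 1 vehicle library gave 2 to 4 lower and 0 to 2 higher. A fit of these 2 groups alone called none in either direction. High against low dose called no gene (0.181% of all genes lower and 0.196% higher), with 4 at an unadjusted p under 0.05 and none called by DESeq2, although without high replicate 2 the counts were 6 lower and 5 higher. Tested directly, 7 genes were higher with Menthae Herba than with Saposhnikoviae Radix and none lower (6.00% and 8.06% of all genes), led by GINS3 (0.47), POLE2 (0.45) and GINS4 (0.42). That count was 12 without Saposhnikoviae high replicate 2 and 0 in a fit of the 2 groups alone.

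Saengmaek-san at 500 µg/mL gave 8 lower and 4 higher (8.54% and 8.87%). E2F2 fell to 3.73, 3.85 and 3.71 CPM (log2 fold change -0.81, SE 0.14, adjusted p = 5.74e-05) and ORC1, the largest ORC subunit, to 10.1 to 11.4 CPM from 16.1 to 17.6 CPM (-0.66, SE 0.11, adjusted p = 2.41e-05). POLE, the catalytic subunit of polymerase epsilon, fell to 44.5, 66.9 and 49.7 CPM (-0.53, adjusted p = 0.0199). RFC4 rose by 0.44, RPA2 by 0.41 and PRIM1 by 0.29 on the log2 scale. ORC1 was also the gene with the largest fall in high against low dose (-0.43, SE 0.11, adjusted p = 0.0088), where 4 genes were lower and none higher (3.28% and 2.41%). Against vehicle the counts were 5 lower and 2 higher without high replicate 1, 2 higher without high replicate 3, 1 higher without vehicle replicate 3, and 15 lower and 6 higher without all tilted libraries. In high against low dose 8 were lower without the tilted libraries and 1 without high replicate 1. Soyo-san at 500 µg/mL gave 2 higher, POLE2 (15.7 and 16.2 CPM against 11.5 ± 0.750) and PRIM1 (23.6 and 26.2 CPM), and none lower (1.62% and 1.29%). At an unadjusted p under 0.05, 6 genes passed, and DESeq2 called 1 gene lower. No gene was called without Soyo-san high replicate 2. High against low dose called none with edgeR or DESeq2 (0.232% of all genes lower and 0.263% higher), with 2 at an unadjusted p under 0.05. Okbyeongpung-san, with 1 library a dose, gave 10 lower and 2 higher as the mean of its doses (5.88% and 5.60%), its spread being taken from the other groups. Leaving out 1 vehicle library gave 5 to 7 lower. Among the genes called, E2F2 (-0.72) and POLE (-0.55) were lowest and RPA2 (0.45) highest, while RPA3 had a larger log2 fold change, 0.67, and was not called (adjusted p = 0.106). The high-dose library of Okbyeongpung-san had CCNE2 at 6.89 CPM and RPA1 at 53.3 CPM, and at the medium and low dose these were 24.4 and 22.2 CPM and 92.3 and 92.2 CPM.

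At the medium dose 1 gene was called with Menthae Herba (MCM3 lower, background 0.997%), 1 with Saposhnikoviae Radix (RRM2 higher, 1.00%) and 1 with Saengmaek-san (RPA2 higher, 4.36%), while Soyo-san had none (0.238%). At the low dose Saposhnikoviae Radix had 5 (17.0% of all genes), Saengmaek-san 2 (4.02%), and Menthae Herba (0.496%) and Soyo-san (1.52%) none; DESeq2 called 2 and 3 in these last. At an unadjusted p under 0.05, 7 genes passed with Soyo-san at each of these doses, and 3 with Menthae Herba at the low dose. RPA2 was called higher against vehicle in the medium or low dose of Aucklandiae Radix, Saengmaek-san, Guibi-tang and Saposhnikoviae Radix, and over all 25 groups its lowest libraries were in Polygalae Radix high (43.9 CPM), vehicle (48.0 CPM) and Guibi-tang high (55.9 CPM).

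Over all 25 groups the genes followed for their role kept distinct orders. MCM5 was lowest with Polygalae Radix high (35.1 ± 0.371 CPM) and Guibi-tang high (41.7 ± 0.910), whose libraries did not overlap, then Polygalae Radix medium (64.6 ± 0.421). The other 22 group means ran from 72.7 to 98.9 CPM, with ranges that overlapped between neighbours. PCNA had the same 2 groups lowest, at 64.4 ± 2.19 and 69.0 ± 3.95 CPM with overlapping libraries, and the rest ran from 98.0 to 129 CPM. RPA1 was at 53.3 CPM in the single high-dose library of Okbyeongpung-san, 56.8 ± 1.73 in Polygalae Radix high and 59.8 ± 0.226 in Guibi-tang high. TYMS was lowest in the high doses of Guibi-tang (42.9 ± 2.89), Polygalae Radix (45.3 ± 0.313) and Aucklandiae Radix (48.6 ± 4.74), then in Okbyeongpung-san high (57.5 CPM).

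RRM2 had Aucklandiae Radix high lowest, at 74.6 ± 3.08 CPM, apart from Guibi-tang high (132 ± 2.47) and the rest. Vehicle, at 183 ± 5.22 CPM, was below 19 of the treated groups for this gene. CCNE2 was highest in Polygalae Radix high (59.0 ± 9.71 CPM) and Guibi-tang high (48.0 ± 2.41), followed by Polygalae Radix medium (29.7 ± 2.62), and lowest in Okbyeongpung-san high (6.89 CPM). E2F1 was highest in Guibi-tang high (70.9 ± 4.17) and Polygalae Radix high (70.8 ± 8.11), which overlapped, and the other 23 means ran from 33.6 to 52.5 CPM. CDC6 was highest in Aucklandiae Radix high (101 ± 3.59 CPM), then Polygalae Radix high (92.6 ± 1.25), and lowest in Okbyeongpung-san high (55.2 CPM). GINS2 was highest in Saposhnikoviae Radix high, at 27.0 ± 13.1 CPM, where replicate 2 had 42.1 CPM, and it was not called in any comparison of a high dose with vehicle.

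Overlapping annotation limits some of these values. Exons of 15 of the 42 genes share bases with a gene on the other strand in GENCODE release 29, among them MCM2, MCM7, RRM1, LIG1, GINS3 and CCNE2. The strand setting of the counting is not given in the sources used here, so reads of such partners may be counted with them. Exons of 5 of the genes, POLA2, PRIM1, POLD1, FEN1 and RRM2, share bases with a gene on the same strand, which a strand setting cannot separate.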

How the data were processed

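RNA from 60 libraries of SW1783 cells had been sequenced (paired-end, directional kit, per the labels). The authors deposited expected counts per Ensembl gene, with no normalization. The submitters' processing notes list RSEM 1.3.3 and STAR 2.7.3a, with Trim Galore 0.6.5 and FastQC 0.11.9, and the build GRCh38. The annotation release and strand setting are not given in the sources used here. Of 60675 gene IDs, 41209 matched a symbol.

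Expected counts were rounded (9.62% of values were not whole). One edgeR 4.0.16 quasi-likelihood fit (R 4.3.3, TMM, filterByExpr with a minimum count of 10 and total of 15) held all 25 groups, with 35 residual degrees of freedom and 19366 genes. P-values were adjusted by Benjamini-Hochberg over all genes tested, and each SE is the size of the log2 fold change over the square root of F. The fit was also run on simulated counts with fewer groups, the same dispersion for every gene and no length tilt. That run does not show how the fit performs on these libraries. Deposited values gave 0 identical library pairs. Full values went to the 3 genes called lower and the 3 called higher with the largest change in each high-dose comparison, and 9 genes were followed over all groups. Of other lists, up to 3 genes per direction were named. The alternatives were DESeq2 1.42.0, RLE scaling, no filter, fewer groups, a replicate block, leaving out single libraries and, added after seeing the data, leaving out length-tilted libraries. Gene positions are from GENCODE release 29. The 42 genes and the other lists were chosen with earlier results of these data known.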

Additional observations from a re-analysis of the deposited data

How the results depend on the processing

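Counts are of the 42 genes called at an adjusted p under 0.05. The shares of all genes called under each setting are not given beside them. For Polygalae Radix and Guibi-tang at the high dose against vehicle, every setting run gave 20 to 25 lower and 8 to 13 higher. Counts for the other extracts and for lower doses moved, and the cause was not tested.

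With DESeq2, Aucklandiae Radix high had 5 higher, Soyo-san high 1 lower and Saengmaek-san high against low 1 higher. In either direction, DESeq2 called 8 with Polygalae Radix medium, 2 with Saposhnikoviae Radix medium and 5 with Saengmaek-san medium. At the low dose it called 2 each with Polygalae, Aucklandiae and Menthae, 11 with Saposhnikoviae, 4 with Saengmaek-san and 3 each with Guibi-tang and Soyo-san. RLE scaling gave 5 higher for Aucklandiae Radix high and, at the low dose, 8 for Saposhnikoviae Radix, 1 for Saengmaek-san and 0 for Guibi-tang.

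With no low-count filter, more genes were tested. Menthae Herba high had 1 lower and 4 higher, Saposhnikoviae Radix high 2 lower and 0 higher, Saengmaek-san high 2 higher and Soyo-san high 0 higher. High against low gave 1 higher for Aucklandiae Radix, 0 lower and 1 higher for Menthae Herba and 0 lower for Saengmaek-san. Medium doses gave 1 each with Polygalae Radix and Guibi-tang and 0 with Saengmaek-san, Menthae, Saposhnikoviae and Aucklandiae. Low doses gave 3 for Saposhnikoviae Radix, 1 for Saengmaek-san and 0 for Guibi-tang. Okbyeongpung-san had 5 lower and 1 higher.

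With only the groups compared, Aucklandiae Radix high had 7 higher, Menthae Herba high 1 lower and 2 higher, Saposhnikoviae Radix high 0 and 0, and Soyo-san high 7 lower and 5 higher. Menthae Herba high against low had 0 and 0, and Menthae Herba against Saposhnikoviae Radix 0 higher. Medium doses gave Polygalae 18, Aucklandiae 6, Menthae 10, Saposhnikoviae 9, Saengmaek-san 5, Guibi-tang 2 and Soyo-san 7. Low doses gave 5, 11, 6, 0, 12, 0 and 6 in that order of extracts. This setting was not run for Okbyeongpung-san.

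Without the length-tilted libraries, Aucklandiae Radix high had 7 higher, Menthae Herba high 5 lower, Saengmaek-san high 15 lower and Soyo-san high 4 lower and 4 higher. High against low gave 5 higher for Aucklandiae Radix, 2 lower for Menthae Herba, 8 lower for Saengmaek-san and 1 lower for Soyo-san. Medium doses gave 19, 6, 5, 5, 10, 18 and 4 and low doses 7, 7, 5, 1, 11, 2 and 7 in the same order. E2F1 in Saposhnikoviae Radix high against vehicle then turned to -0.31 (adjusted p = 0.0396).

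No comparison with 3 or more same-numbered pairs had each pair correlated above 0.1, so the numbers are not taken to pair the libraries. Polygalae Radix high against low had r = 0.17. This is a single value, because with 2 libraries a group both pairs must give the same r. The replicate block left the counts of that comparison at 25 lower and 11 higher. A replicate block gave 2 for Guibi-tang low and 1 for Soyo-san low, and a replicate block within library set gave 2 lower for Saengmaek-san high against low, and these were the only counts it moved by over 1.5 times.

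Where leaving out a library left 1 in a group, that library was assumed to vary like the other groups. Leaving out single libraries gave these ranges against vehicle at the high dose: Aucklandiae Radix 7 to 16 lower, Menthae Herba 3 to 10 higher, Saposhnikoviae Radix 0 to 12 lower and 0 to 7 higher, Saengmaek-san 5 to 9 lower and 1 to 4 higher, Soyo-san 0 to 2 higher, and Okbyeongpung-san 5 to 7 lower and 1 to 2 higher. At medium doses they were 2 to 5 with Polygalae, 0 to 2 with Aucklandiae, 0 with Menthae and with Saposhnikoviae, 0 to 1 with Saengmaek-san and 2 to 7 for Guibi-tang. At low doses they were 1 to 14 for Saposhnikoviae Radix, 0 to 2 for Saengmaek-san and 0 to 1 for Guibi-tang. High against low gave 7 to 12 lower and 1 higher with Aucklandiae, 0 to 1 lower and 2 to 7 higher with Menthae, 0 to 6 lower and 0 to 5 higher for Saposhnikoviae Radix and 1 to 3 lower for Saengmaek-san, and Menthae Herba against Saposhnikoviae Radix 6 to 12 higher. Without Saposhnikoviae Radix high replicate 2, signs turned in high against low for GINS2 (-0.45, up to 0.22 without high replicate 1), CDC6 (0.15, down to -0.19 without high replicate 3) and E2F1 (-0.51, up to 0.25 without high replicate 3), and in Menthae Herba against Saposhnikoviae Radix for MCM5 (0.26, down to -0.20 without Menthae high replicate 3).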
